A study of Mus musculus with 12 samples.

Results

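The colony-stimulating and osteoclast-regulating factors examined here were 7 genes, chosen by gene symbol: Csf1, Csf2, Csf3, Il34, Il33, Tnfsf11 and Tnfrsf11b. All 7 were found among the 46731 genes of the expression table. The 4 groups of ATDC5 cells, a chondrogenic mouse line of teratocarcinoma origin, had 3 libraries each. shRNA-NC cells carried a control hairpin vector (genotype given as wildtype), and shRNA-Ddx5 cells carried a hairpin against Ddx5, an RNA helicase that acts in splicing and transcription. Each line was kept in medium without stimulation or received IL-1β at 5 ng/ml with TNF-α at 25 ng/ml, called cytokines below, and the labels give 6 h for every group. Both hairpin vectors were lentiviral, integrated and driven by a U6 promoter, with puromycin selection of the knockdown cells. A single Ddx5 hairpin is described and no clones are named. Levels were measured by poly(A) RNA sequencing as FPKM, fragments normalised to exon length and to library size.

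These factors form the mesenchymal side of myeloid and bone cell control. Csf1 (M-CSF) and Il34 both bind the receptor Csf1r and keep macrophages and osteoclast precursors alive, whereas Csf2 (GM-CSF) and Csf3 (G-CSF) drive granulocyte and macrophage production. Tnfsf11 (RANKL) binds Tnfrsf11a (RANK) on precursors and turns them into osteoclasts, and Tnfrsf11b (osteoprotegerin) is the soluble decoy receptor that captures Tnfsf11. Il33 is a nuclear alarmin that signals through Il1rl1 (ST2) with Il1rap. In cartilage and bone, chondrocytes, osteoblasts and synovial fibroblasts are known sources of several of these proteins, and inflammatory cytokines are known inducers of Csf1 and Csf2.

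The promoters of 4 of the 7 members were present in the RefSeq promoter table (build GRCm38.p6), which spans 250 bases before to 50 bases after each start. Those of Csf1 and Csf2, the tested members with the largest fitted cytokine differences in both lines, and of Tnfsf11, which stayed near 0, are shown 5′ to 3′ on the gene's own strand. Csf1 lies at chr3:107760420-107760719, Csf2 at chr11:54249850-54250149 and Tnfsf11 at chr14:78307994-78308293, all on the minus strand of that build. Capitals mark matches, on either strand, to the NF-kB letters GGGNNNNNCC or to the TATA box letters TATAAA. No window of the 3 matched the AP-1 letters TGANTCA.
Csf1: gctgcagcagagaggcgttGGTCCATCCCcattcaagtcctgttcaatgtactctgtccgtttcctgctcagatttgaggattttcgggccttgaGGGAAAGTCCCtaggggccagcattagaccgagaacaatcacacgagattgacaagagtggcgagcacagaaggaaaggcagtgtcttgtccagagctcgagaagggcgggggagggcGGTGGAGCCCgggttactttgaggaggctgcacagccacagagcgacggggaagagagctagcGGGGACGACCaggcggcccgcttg
Csf2: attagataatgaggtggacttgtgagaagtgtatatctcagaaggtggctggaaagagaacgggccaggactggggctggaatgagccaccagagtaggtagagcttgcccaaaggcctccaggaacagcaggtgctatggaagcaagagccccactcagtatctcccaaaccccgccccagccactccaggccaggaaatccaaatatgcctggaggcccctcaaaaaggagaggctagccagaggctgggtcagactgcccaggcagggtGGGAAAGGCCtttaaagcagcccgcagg
Tnfsf11: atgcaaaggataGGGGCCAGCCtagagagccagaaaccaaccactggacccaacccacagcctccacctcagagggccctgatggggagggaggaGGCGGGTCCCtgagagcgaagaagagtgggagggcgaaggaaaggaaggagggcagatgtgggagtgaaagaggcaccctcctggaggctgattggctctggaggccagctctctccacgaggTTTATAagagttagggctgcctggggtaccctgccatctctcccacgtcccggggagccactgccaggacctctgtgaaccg
The Csf1 window held 5 NF-kB matches, of which GGGAAAGTCC at position -155 and GGAAAGTCCC at -154 overlap on opposite strands. The Csf2 window held 1, GGGAAAGGCC at position 23 after the start. In the Tnfsf11 window there were 2 NF-kB matches and 1 TATA match, TTTATA at position -32, read on the opposite strand. Of the 32851 promoters in the table, 50.8% held an NF-kB match, 7.81% an AP-1 match and 13.6% a TATA match, so the NF-kB letters were common among all promoters. A match is a description of the letters only. Annotated starts differ: on GRCm39 the deposited start of Csf2 is 54140725 and that in the GENCODE annotation 54140493. For Csf1 they are 107668048 and 107667806. Each window shown follows 1 start, so bases around another start were not searched.

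Each library held between 14119199 and 19276520 fragments on genes, recovered from the FPKM values. Ddx5 itself checked the labels: its FPKM was 325, 337 and 294 in shRNA-NC in medium and 90.7, 118 and 99.9 in shRNA-Ddx5 in medium. With cytokines it was 327, 302 and 301 against 101, 93.6 and 104. The knockdown groups thus kept 32.3% and 32.1% of the control mean, with no overlap. Of the chondrocyte markers, Sox9 (mean FPKM 27.5 in shRNA-NC in medium) and Col2a1 (12.4) reached an FPKM of 1 in at least 3 libraries, whereas Acan and Matn1, defining genes of mature cartilage, had at most 4 and 2 fragments in any library. Col2a1 reached that level in 6 control libraries and in 0 knockdown libraries, so no test of its knockdown difference is given. The summed FPKM of the 8 chondrocyte markers was 37.0 to 42.5, 24.1 to 28.3, 12.1 to 17.3 and 6.26 to 7.12 in shRNA-NC in medium, shRNA-Ddx5 in medium, shRNA-NC with cytokines and shRNA-Ddx5 with cytokines. In the same order, 4, 7, 3 and 7 of the 8 had over 3 fragments in at least 1 library. With the knockdown the sum was thus lower while more of the markers were detected. In bulk RNA, fewer cells of a type and less RNA per cell cannot be told apart. The limma p-values below rest on the spread between libraries within groups, pooled over all 4 groups and moderated over all genes tested.

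Of the 7 members, 4 reached an FPKM of 1 in at least 3 libraries and entered the test, Csf1, Csf2, Il34 and Tnfrsf11b, among 12368 genes tested. Csf2 passed only through its 2 cytokine groups, so that it had to differ between medium and cytokines. Its place below among the rises and among the groups without overlap with cytokines supports nothing. Csf3, Il33 and Tnfsf11 did not pass and are given as fragments. With cytokines, all 4 tested members rose in shRNA-NC cells, where 33.8% of all tested genes were called and 18.6% rose. All 4 also rose in shRNA-Ddx5 cells, where 27.0% were called and 13.5% rose. The knockdown moved 2 of the 4 in medium, Csf1 up and Tnfrsf11b down, against 47.0% of all tested genes called, 25.3% up and 21.7% down. With cytokines it moved Csf1 and Tnfrsf11b again, both down, against 45.6% called and 22.1% down. The response to cytokines differed between the lines for 1 of the 4, Csf1, against 8.21% of all tested genes, and 4.75% in the same direction, with a lower value in shRNA-Ddx5. Libraries of the compared groups did not overlap for 4 of the 4 with cytokines in each line, where 45.7% and 47.3% of all tested genes did not overlap. For the knockdown they did not overlap for 2 of the 4, against 53.5% of all tested genes in medium and 61.6% with cytokines. These calls come from limma on log2(FPKM + 1) with Benjamini-Hochberg adjustment over all genes tested and a threshold of 0.05. The split of calls over all genes depended on the scaling of the libraries. After rescaling to the same sum of fragments, 1850 of 4379 calls for cytokines in shRNA-NC were rises, against 2303 of 4181 as deposited. For the knockdown in medium 2480 of 5834 calls were rises, against 3131 of 5817. After quantile normalization, 1398 of 3581 calls for cytokines in shRNA-Ddx5 were rises, against 1671 of 3344.

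**Figure D1:**
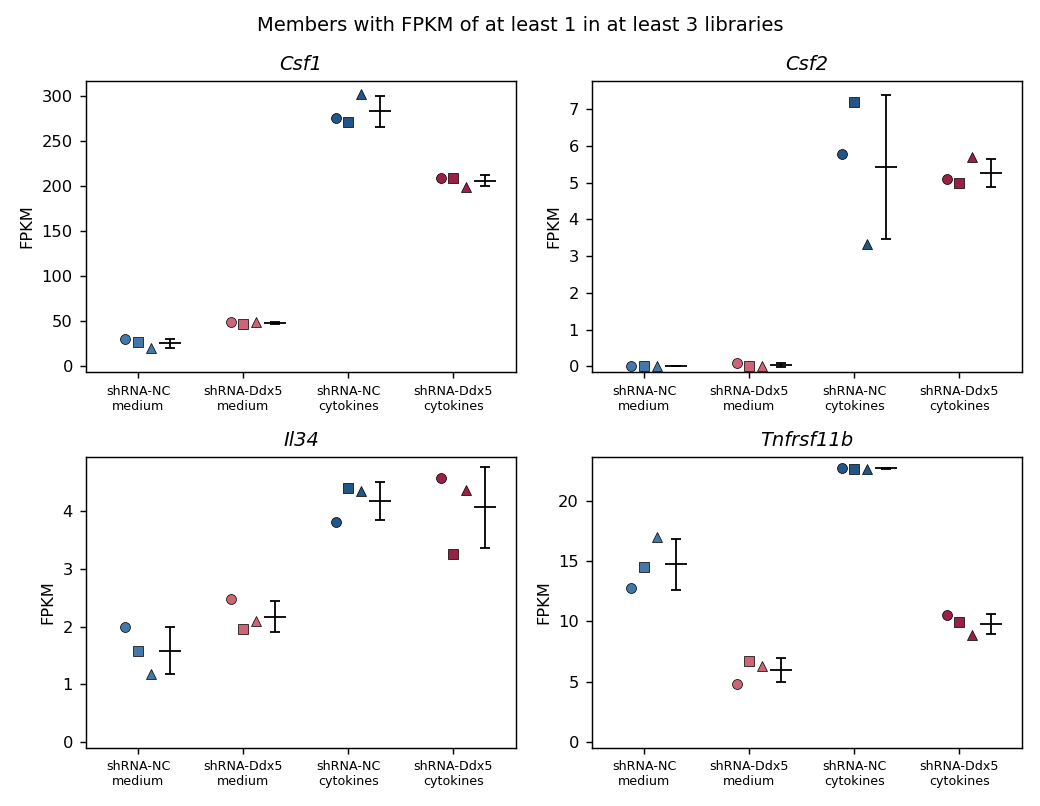
FPKM of the 4 tested members in each library, in 4 panels with separate linear axes. Circles, squares and triangles are replicates 1, 2 and 3, and the bars beside them are the mean ± SD of 3 libraries. Csf1 rose from a mean of 25.7 to 283 in shRNA-NC and from 48.4 to 206 in shRNA-Ddx5, and Tnfrsf11b was lower in shRNA-Ddx5 than in shRNA-NC under both conditions.

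Csf1 was the most abundant member in every group. It was higher with cytokines in both lines, higher in knockdown cells than in control cells in medium, and lower in knockdown cells than in control cells with cytokines. Its gene (ID 12977) lies at chr3:107648364-107668048 on the minus strand of GRCm39, the build that the table's coordinates match. In shRNA-NC in medium its FPKM was 30.3, 26.6 and 20.1, a mean of 25.7. In shRNA-Ddx5 in medium it was 49.1, 46.8 and 49.3, a mean of 48.4. All 3 knockdown libraries lay above all 3 control libraries. With cytokines the FPKM was 276, 271 and 303 in shRNA-NC, a mean of 283, and 210, 210 and 200 in shRNA-Ddx5, a mean of 206. Here the knockdown libraries all lay below the control libraries, and no 2 of the 4 groups overlapped. In shRNA-NC with cytokines, 199 genes of the whole table had a higher mean FPKM than Csf1, against 2636 in medium.

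The cytokine increase of Csf1 was 11.0-fold in shRNA-NC and 4.26-fold in shRNA-Ddx5, as ratios of mean FPKM. On the log2(FPKM + 1) scale these were differences of 3.43 (SE 0.12, limma adjusted p = 5e-09) and 2.07 (SE 0.12, limma adjusted p = 2.01e-07). Among the 12368 genes tested, the first ranked 27 and the second 118 from the largest rise. The knockdown raised Csf1 1.89-fold in medium, a log2 difference of 0.91 (limma adjusted p = 0.000128). With cytokines the knockdown cells held 72.8% of the control mean, a log2 difference of -0.45 (limma adjusted p = 0.00959). The order of the groups was therefore shRNA-NC in medium, shRNA-Ddx5 in medium, shRNA-Ddx5 with cytokines and shRNA-NC with cytokines, and each neighbour in that order differed by the test. The difference between the 2 cytokine effects, the interaction, was -1.36 on the log2 scale (95% interval -1.74 to -0.99, limma adjusted p = 0.000775), which ranked 69 from the lowest of all genes tested. The smaller rise in knockdown cells thus combined a higher level in medium with a lower level under cytokines. The gene lies within the antisense gene Gm40121, whose own FPKM was at most 2.03 in any library, and the protocol names no strand-marking step.

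Markers of other cell types moved with the knockdown too. The summed FPKM of 7 osteoblast markers was 16.1 to 18.5 in the control libraries in medium and 65.9 to 70.0 in the knockdown libraries. With cytokines the ranges were 6.36 to 9.68 and 24.96 to 28.1. Sp7, an osteoblast transcription factor, rose by 3.02 and 1.83 on the log2 scale in the 2 knockdown comparisons (limma adjusted p = 1.19e-07 and 2.65e-06). Alpl, the alkaline phosphatase of mineralizing cells, had a mean FPKM of 0.789 and 0.391 in the control groups and 15.3 and 12.4 in the knockdown groups. Without the knockdown libraries it would not have passed the filter, so no test of it is given. The other 2 osteoblast markers that passed the filter, Runx2 and Phex, rose by 0.63 and 0.74 in medium. With cytokines their differences were 0.27 and 0.43, and each lost the call under 12 and 10 of 21 alternatives, respectively. Their part in the Csf1 and Tnfrsf11b results was not tested.

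Csf2 was found almost only in the presence of cytokines, with overlapping levels in the 2 lines. Its gene (ID 12981) lies at chr11:54138096-54140725 on the minus strand. In medium, shRNA-NC libraries held 0, 0 and 0 fragments and shRNA-Ddx5 libraries 2, 0 and 0, and a count of 0 allows up to 3 fragments. With cytokines, shRNA-NC libraries held 124, 173 and 80 fragments, an FPKM of 5.79, 7.20 and 3.32. shRNA-Ddx5 libraries held 108, 102 and 115 fragments, an FPKM of 5.09, 5.00 and 5.69. Every cytokine library was far above every medium library, and the 2 cytokine groups overlapped, with the widest spread in shRNA-NC.

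Against a floor of 3 fragments in each medium library, mean Csf2 FPKM was at least 42.4-fold higher with cytokines in shRNA-NC. In shRNA-Ddx5, where 1 medium library held fragments, the summed 325 fragments with cytokines against 2 in medium gave a ratio of 177 per library size, with an exact 95% binomial interval of 48.6 to 1469 that covers counting error only. The bound and the ratio are on different scales and are not compared. The fitted log2 differences were 2.64 and 2.60 and depend on the pseudocount, since the medium values are near 0. Csf2 passed the filter only through its cytokine groups, so no p-value is given for these differences. No knockdown difference passed the test. It was 0.04 on the log2 scale in medium (limma adjusted p = 0.868) and 0.01 with cytokines, with a 95% interval of -0.39 to 0.41 (limma adjusted p = 0.975). That interval holds changes in either direction, so the lines are not shown to be alike. The interaction was -0.04 (limma adjusted p = 0.957).

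Csf3 was scarce in every group, and its highest counts were in the knockdown cells with cytokines. Its gene (ID 12985) lies at chr11:98591287-98594457 on the plus strand. In medium it had 0, 4 and 0 fragments in shRNA-NC and 2, 2 and 1 in shRNA-Ddx5. With cytokines it had 5, 15 and 3 fragments in shRNA-NC, an FPKM of 0.154, 0.413 and 0.0823, and 33, 25 and 26 fragments in shRNA-Ddx5, an FPKM of 1.03, 0.811 and 0.852. All 3 knockdown libraries with cytokines lay above all others, whereas the control libraries with cytokines overlapped those in medium. Mean FPKM with cytokines was 4.14-fold higher in shRNA-Ddx5 than in shRNA-NC (exact two-sided permutation test, p = 0.1, the smallest p that 3 against 3 allows). Within shRNA-Ddx5 the summed 84 fragments with cytokines against 5 in medium gave a ratio of 18.3 per library size (exact 95% binomial interval 7.54 to 57.9, counting error only). Because only 1 of the 12 libraries reached an FPKM of 1, Csf3 was not among the genes tested. It overlaps the antisense gene Gm38985 over 1130 bases, and that gene's FPKM was at most 0.185 in any library.

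**Figure D2:**
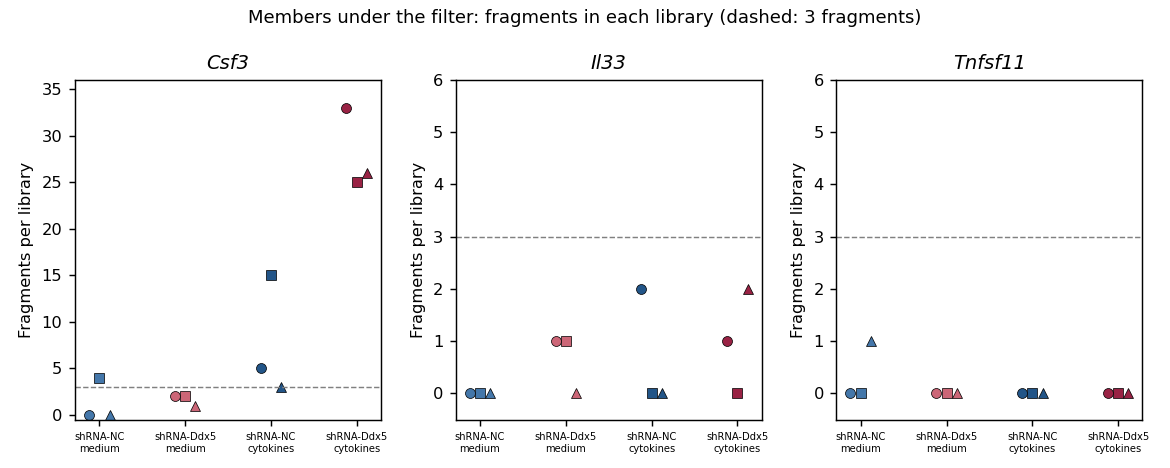
Fragments per library for the 3 members under the filter, Csf3, Il33 and Tnfsf11, with circles, squares and triangles for replicates 1, 2 and 3 and a dashed line at 3 fragments. The 3 shRNA-Ddx5 libraries with cytokines held 25 to 33 Csf3 fragments, whereas Il33 stayed at or under 2 and Tnfsf11 at or under 1 in all 12 libraries.

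Il34, the other ligand of Csf1r, was present at a low level in all 12 libraries and rose with cytokines in both lines. Its gene (ID 76527) lies at chr8:111467809-111532579 on the minus strand. The FPKM in medium was 1.99, 1.58 and 1.19 in shRNA-NC and 2.48, 1.95 and 2.10 in shRNA-Ddx5. With cytokines it was 3.81, 4.40 and 4.35 in shRNA-NC and 4.57, 3.27 and 4.36 in shRNA-Ddx5. The 2 lines overlapped under both conditions, and cytokine libraries lay above medium libraries in both. The rise was 2.64-fold in shRNA-NC and 1.87-fold in shRNA-Ddx5, log2 differences of 1.02 and 0.67 (limma adjusted p = 0.000205 and 0.00357).

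The knockdown difference of Il34 in medium was 0.31 on the log2 scale (95% interval 0.01 to 0.60, limma adjusted p = 0.0849). It passed the threshold without shRNA-NC medium replicate 1 (0.42, limma adjusted p = 0.0328). With cytokines it was -0.04 (95% interval -0.34 to 0.26, limma adjusted p = 0.826), and the interaction was -0.35 (limma adjusted p = 0.302). In the order of the levels, then, the 2 medium groups did not differ by the test, nor did the 2 cytokine groups. Per length, Csf1 outweighed Il34 in every library: the mean ratio of their FPKM was 16.3 ± 1.01 in shRNA-NC in medium, 22.4 ± 2.26 in shRNA-Ddx5 in medium, 67.9 ± 5.60 in shRNA-NC with cytokines and 51.9 ± 10.6 in shRNA-Ddx5 with cytokines (SD, n = 3). Il34 overlaps the opposite-strand gene Mtss2 by 225 bases, and Mtss2, at a mean FPKM of 4.33, 7.74, 2.86 and 5.41 in the same group order, had higher means in knockdown cells. Without strand information, reads in the shared bases cannot be told apart.

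Il33, the alarmin, was near 0 throughout. Its gene (ID 77125) lies at chr19:29902513-29938118 on the plus strand, and no library held more than 2 fragments of it. Tnfsf11, the osteoclast differentiation ligand, was also near 0. Its gene (ID 21943) lies at chr14:78514886-78545483 on the minus strand, and it had 1 fragment in shRNA-NC medium replicate 3 and 0 in every other library. At these depths no difference of either gene between groups was detectable, and no fold was computed. The ratio of Tnfsf11 to Tnfrsf11b, a common summary of this pair, was not computed because Tnfsf11 did not exceed 3 fragments in any library.

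Tnfrsf11b, the decoy receptor, was lower in knockdown cells under both conditions and higher with cytokines in both lines. Its gene (ID 18383) lies at chr15:54114014-54141880 on the minus strand. The FPKM in medium was 12.7, 14.5 and 17.0 in shRNA-NC and 4.83, 6.73 and 6.31 in shRNA-Ddx5. With cytokines it was 22.7, 22.7 and 22.6 in shRNA-NC and 10.5, 9.91 and 8.89 in shRNA-Ddx5. No 2 of the 4 groups overlapped, and every knockdown library, with or without cytokines, lay below every control library in medium. The 3 control libraries with cytokines were nearly equal.

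The knockdown cells held 40.4% of the control mean of Tnfrsf11b in medium and 43.1% with cytokines. The log2 differences were -1.18 (SE 0.12, 95% interval -1.44 to -0.91, limma adjusted p = 2.24e-05) and -1.14 (SE 0.12, 95% interval -1.41 to -0.87, limma adjusted p = 2.61e-05). Cytokines raised it 1.54-fold in shRNA-NC and 1.64-fold in shRNA-Ddx5, log2 differences of 0.60 and 0.64 (limma adjusted p = 0.00311 and 0.00234). The interaction was 0.04, with a 95% interval of -0.34 to 0.41 (limma adjusted p = 0.923). In contrast to Csf1, whose knockdown difference changed sign between medium and cytokines, Tnfrsf11b was lower in knockdown cells in both. The order of its levels was shRNA-Ddx5 in medium, shRNA-Ddx5 with cytokines, shRNA-NC in medium and shRNA-NC with cytokines, and the middle pair was not a comparison of the design.

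**Figure D3:**
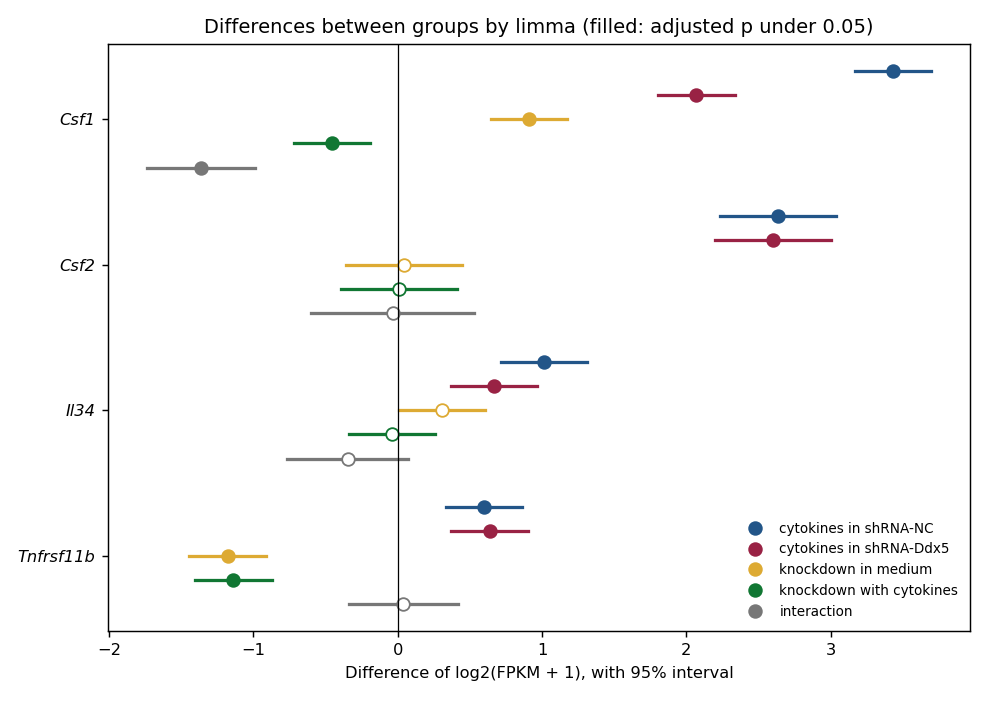
Difference of log2(FPKM + 1) for the 4 tested members in the 4 comparisons and the interaction, as points with 95% intervals from limma. Filled points have an adjusted p under 0.05. The cytokine differences all lie above 0, the Tnfrsf11b knockdown differences lie at -1.18 and -1.14 and the Csf1 interaction lies at -1.36. The cytokine differences of Csf2 had to lie above 0, since it passed the filter only through its cytokine groups.

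The receptors of these factors were mostly scarce in the same cells, and 4 of the 11 listed passed the filter. Csf1r, the receptor of Csf1 and Il34, had at most 31 fragments in a library, with a mean FPKM of 0.0887, 0.381, 0.0327 and 0.267 in shRNA-NC in medium, shRNA-Ddx5 in medium, shRNA-NC with cytokines and shRNA-Ddx5 with cytokines. Csf2ra, the ligand-specific chain for Csf2, had a mean FPKM of 0.223 to 0.363. Its signalling partner Csf2rb had at most 15 fragments in a library, and Csf2rb2 at most 8. Csf3r, and Ptprz1, another binding partner of Il34, had no fragment in any library. Tnfrsf11a, the receptor of Tnfsf11, had at most 2. By these levels, the ligand Csf1 was abundant in a culture in which its receptor was barely detected.

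Il1rl1, the receptor chain of Il33, was the receptor with the largest change. Its FPKM was 3.27, 2.75 and 2.73 in shRNA-NC in medium and 1.43, 1.99 and 1.73 in shRNA-Ddx5 in medium. With cytokines it was 44.6, 43.9 and 38.2 in shRNA-NC and 16.4, 15.8 and 16.7 in shRNA-Ddx5. The groups did not overlap. Cytokines raised it by 3.46 in shRNA-NC and 2.68 in shRNA-Ddx5 on the log2 scale (limma adjusted p = 5.76e-10 and 5.43e-09), and the knockdown differences were -0.53 in medium and -1.32 with cytokines (limma adjusted p = 0.00105 and 2.5e-06). Thus Il1rl1 RNA was higher with cytokines while the ligand Il33 stayed at or under 2 fragments. The values are per gene and do not separate transcript forms of Il1rl1.

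Lgr4, a further receptor that binds Tnfsf11, was lower with cytokines and higher in knockdown cells. In medium its mean FPKM was 11.6 in control and 26.4 in knockdown cells. With cytokines these means were 5.16 and 6.78. Cytokines changed it by -1.03 in shRNA-NC and -1.81 in shRNA-Ddx5 on the log2 scale (limma adjusted p = 4.61e-05 and 3.45e-07). The knockdown raised it by 1.12 in medium (limma adjusted p = 1.95e-05). The knockdown difference with cytokines, 0.34 (limma adjusted p = 0.0296), no longer passed when any 1 of the 6 cytokine libraries was left out, with values from 0.32 to 0.36. It also did not pass with no filter (limma adjusted p = 0.0557) or with the same sum of fragments (0.29, limma adjusted p = 0.0671). Sdc1, a proteoglycan that binds Il34, was higher in knockdown cells by 0.88 in medium and 0.46 with cytokines (limma adjusted p = 0.000107 and 0.00693). Its cytokine difference in shRNA-NC, 0.38 (limma adjusted p = 0.0254), did not pass without shRNA-NC medium replicate 3 (0.30) or without shRNA-NC cytokine replicate 2 (0.38) or 3 (0.33). Nor did it pass with no filter (limma adjusted p = 0.051), quantile normalization (0.26, limma adjusted p = 0.0664) or the same sum of fragments (0.30, limma adjusted p = 0.0617). Il1rap, the shared partner chain of the interleukin-1 and Il33 receptors, stayed at a mean FPKM of 0.701 to 1.09. Without the knockdown libraries it would not have passed the filter, so the call of its knockdown difference with cytokines (0.30) supports nothing. That call was lost in 13 of 21 alternatives. Of the 12 fits that left out 1 library, 8 lost it, with values from 0.26 to 0.33 over the 12 fits. These 8 were the fits without shRNA-NC medium replicate 1 or 2 and those without 1 of the 6 cytokine libraries.

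**Figure D4:**
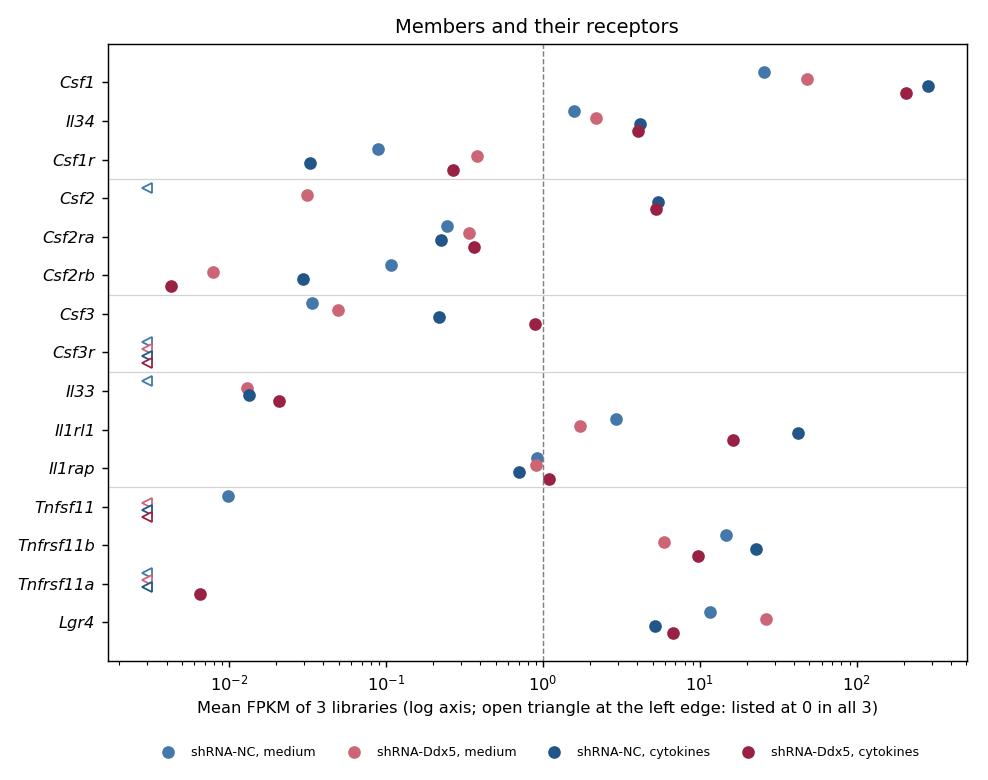
Mean FPKM of 3 libraries for the 7 members and 8 of their receptors on a log axis, 1 point per group, with open triangles at the left edge for genes listed at 0 in all 3 libraries of a group and a dashed line at an FPKM of 1. Csf1 and Tnfrsf11b lie above the line in every group, whereas Csf1r, Csf2ra, Csf2rb, Csf3r and Tnfrsf11a lie below it in every group.

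Most markers of the cells on which these factors act were at or near 0, although some held fragments. None of 9 osteoclast markers passed the filter. Acp5, the tartrate-resistant acid phosphatase, and Ocstamp, a fusion factor, had no fragment in any library. The summed FPKM of the 9 markers was 0.518 to 0.836, 0.815 to 0.868, 0.594 to 1.68 and 1.43 to 1.75 in shRNA-NC in medium, shRNA-Ddx5 in medium, shRNA-NC with cytokines and shRNA-Ddx5 with cytokines. In the same order, 3, 3, 3 and 4 of the 9 had over 3 fragments in at least 1 library, and the sum in shRNA-Ddx5 was higher with cytokines. Of 11 macrophage and other haematopoietic markers, Cd68 alone passed the filter, and in limma it passed no test of the 4 comparisons, nor an unadjusted p under 0.05 in any, nor the test with voom weights. Ptprc, Tyrobp and C1qa had no fragment in the 12 libraries, and the summed FPKM of the list was 1.29 to 2.09, 2.16 to 3.05, 1.70 to 2.39 and 2.54 to 2.69 in the same order. The sum was thus higher in every knockdown library than in every control library of the same condition. Csf1r, which is on the list, had higher means in knockdown cells, as given above. Cd68 leaned the other way, with knockdown differences of -0.204 in medium and -0.197 with cytokines on the log2 scale. The 4 endothelial markers summed to at most 0.152.

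The intracellular pathway of the receptors for Tnfsf11 and Il33, which is shared with the receptors of the added cytokines, was expressed in these cells. All 21 genes of the list passed the filter. Here and for the lists that follow, a gene with under 3 control or under 3 knockdown libraries at an FPKM of 1 is left out of the counts and medians of the knockdown comparisons, since the filter kept it only through the side where it is high, and likewise for medium and cytokines. That left 20 of the 21, without Fos, an AP-1 subunit. With cytokines 10 rose and 2 fell in shRNA-NC, where 33.8% of all tested genes were called, with a median log2 difference of 0.33 against 0.02 over all genes tested. In shRNA-Ddx5 10 rose and 1 fell, where 27.0% of all were called, with a median of 0.28 against 0.000137. Traf1, a TNF receptor adaptor, rose by 2.52 and 2.19, and Relb, an NF-kB subunit, by 1.67 and 2.61 in the 2 lines. Nfkb2, the precursor of the non-canonical subunit, rose by 1.77 and 2.27. Nfatc1, the osteoclast master regulator, fell, by differences of -0.39 and -0.62. With the knockdown, 2 rose and 6 fell in medium (median -0.12 against 0.03), where 47.0% of all tested genes were called, and 4 rose and 8 fell with cytokines (median -0.26 against 0.01), where 45.6% were. The 8 called in medium were thus not above the share over all genes. Jun, an AP-1 subunit, fell, by differences of -1.43 and -1.41, whereas Myd88, the adaptor of interleukin-1 family receptors, rose by 0.46 and 0.68 on the log2 scale.

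Signalling genes downstream of the colony-stimulating factor receptors were also largely expressed. Of 22 listed, 19 passed the filter. Of the 18 that passed it both in medium and with cytokines, cytokines raised 9 in each line and lowered 1 in shRNA-NC and 2 in shRNA-Ddx5, against 33.8% and 27.0% of all tested genes called, with medians of 0.26 and 0.34. Jak2, the kinase bound to the Csf2 receptor, rose by 1.57 and 1.72, and Socs1, a feedback inhibitor, by 1.69 and 1.92 in the 2 lines. Of the 16 that passed it in both control and knockdown libraries, 5 rose and 4 fell with the knockdown in medium (median -0.04), and 3 rose and 4 fell with cytokines (median -0.10). These counts lie near the 47.0% and 45.6% of all tested genes called and are no result about the list. Stat3 rose by 0.66 and 1.503 and Socs3, its feedback inhibitor, by 0.96 and 1.504. Pik3ca, a PI3-kinase catalytic subunit, fell, by differences of -1.23 and -0.95 on the log2 scale. Gab2, an adaptor that passed the filter only through the control libraries, had a mean FPKM of 2.05 and 2.50 in control and 0.391 and 0.505 in knockdown cells.

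Other factors of the same functional class varied in both directions. Of 15 further haematopoietic growth factors, 7 passed the filter. Lif, Il6 and Il15 passed it only through the cytokine libraries and so had to differ from medium. Of the other 4, cytokines raised 1 and lowered 1 in shRNA-NC (median 0.11) and lowered 2 in shRNA-Ddx5 (median -0.48), against 33.8% and 27.0% of all tested genes called. Lif, a cytokine of the interleukin-6 family, was at a mean FPKM of 0.0744 and 0.0981 in the medium groups and 7.16 and 3.14 with cytokines, in shRNA-NC and shRNA-Ddx5. Cxcl12, a stem cell retention chemokine, fell, by differences of -1.73 and -0.75. Il6 was at 0 fragments in all 3 shRNA-NC medium libraries and at a mean FPKM of 0.591, 25.2 and 87.8 in shRNA-Ddx5 in medium, shRNA-NC with cytokines and shRNA-Ddx5 with cytokines. With the knockdown, 3 of 6 rose and 1 fell in medium (median 0.34), and 2 rose and 2 fell with cytokines (median -0.23), against 47.0% and 45.6% of all tested genes called. Cxcl12 rose by 1.11 and 2.09 in those comparisons, and with cytokines Lif fell, by a difference of -0.96, and Clcf1 by -1.61. Il15 is not among these 6, since it passed the filter only through the control libraries.

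Among 17 other mesenchymal regulators of osteoclasts, 7 passed the filter. Pth1r, the parathyroid hormone receptor, passed it only through the knockdown libraries in medium and is left out of the counts. Of the other 6, cytokines raised 1 and lowered 2 in shRNA-NC and raised 1 and lowered 1 in shRNA-Ddx5, against 33.8% and 27.0% of all tested genes called, with medians of 0.01 and -0.16. Ptgs2, the cyclooxygenase that makes prostaglandins, rose by 4.13 in shRNA-NC and 3.44 in shRNA-Ddx5, and Vdr, the vitamin D receptor, fell in shRNA-NC, by a difference of -1.34. The knockdown raised 4 and lowered 0 in medium (median 0.52; 0 were lower at an unadjusted p under 0.05 in limma and 0 with voom weights), where 25.3% of all tested genes rose and 21.7% fell. With cytokines it raised 4 and lowered 1 (median 0.63), where 23.5% rose and 22.1% fell. Tgfb1 rose by 1.39 and 0.88 on the log2 scale. Pth1r had a mean FPKM of 0.0984 and 1.64 in medium and 0.0391 and 0.711 with cytokines, in control and knockdown cells. These rises were seen in the same comparisons as those of the osteoblast markers given above, whose part in them was not tested.

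Factors known to control the decay of cytokine mRNAs through AU-rich elements and stem-loops, which are known from the Csf2 transcript, were examined as well. All 10 passed the filter. Cytokines raised 6 in shRNA-NC and 4 in shRNA-Ddx5 and lowered 0 in either, with medians of 0.32 and 0.30, against 33.8% and 27.0% of all tested genes called and 18.6% and 13.5% raised. At an unadjusted p under 0.05 in limma 1 was lower in shRNA-NC and 0 in shRNA-Ddx5, and with voom weights 0 fell in either. Zc3h12a (regnase-1), an endonuclease of cytokine mRNAs, rose by 2.86 and 3.57, and Zfp36 (tristetraprolin) by 0.93 and 1.40. With the knockdown, 1 rose and 4 fell in medium (median -0.29), and 1 rose and 2 fell with cytokines (median -0.04). These counts lie near or under the 47.0% and 45.6% of all tested genes called and are no result about the list. Zfp36l2 fell, by differences of -1.01 and -1.49, as did Rc3h1 (roquin-1), by -0.94 and -0.80, and Zc3h12a rose by 1.10 with cytokines on the log2 scale.

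The tested genes with the pattern most like each member, by Pearson's r of log2(FPKM + 1) over the 12 libraries, are given as a description, since the libraries fall into 4 groups. For Csf1 these included Denr, a translation factor (r = 0.990), and Cxcl1, a neutrophil chemokine (r = 0.990). Their mean levels spanned very different ranges, from 29.8 to 135 FPKM for Denr and from 4.17 to 2072 FPKM for Cxcl1. For Csf2 they were Ptgs2 (r = 0.991), Gbp3, an interferon-inducible GTPase (r = 0.988), and Tnfaip3, an NF-kB feedback inhibitor (r = 0.987). For Il34 they were Syde1 (r = 0.970), Llph (r = 0.969) and Trmt61a (r = 0.966). For Tnfrsf11b they were Spty2d1 (r = 0.988), Eif4e3, a cap-binding protein (r = 0.982), and Etv3, an ETS factor (r = 0.978), all 3 with lower mean levels in knockdown cells under both conditions.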

How the data were processed

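RNA from 12 ATDC5 libraries (4 groups of 3) was sequenced as poly(A) paired-end reads. The authors deposited FPKM values per gene and no counts were used here. HISAT2 2.0.5, featureCounts 1.5.0-p3, DESeq2 1.20.0 and GATK 3.7 are named in the submitters' processing notes, which also name mm10, whereas the gene coordinates in the table match GRCm39. Multiplied by gene length, 100% of values in every library were whole multiples of 1 fragment within 0.01, which gave fragments per library. The 12368 of 46731 genes that reached an FPKM of 1 in 3 or more libraries were tested, two-sided, with limma 3.58.1 in R 4.3.3 on log2(FPKM + 1), with 4 group means, a trended variance and Benjamini-Hochberg adjustment over all tested genes at 0.05. Listed genes that passed the filter through 1 side of a comparison only were left out of the counts of that comparison, a choice made after their values were seen. A fold change on this scale understates the change of low genes. Folds of mean FPKM use a floor of 3 fragments per library where a group lay at or under it. Intervals are at 95% and, like the floors, cover no error beyond the libraries compared. The fit was tested on simulated data with known changes. Alternatives were another pseudocount, other filters, other scalings, a replicate block, other variance models, only the libraries compared, and each library left out.

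The members and gene lists were chosen with earlier results of these data known. Genes named from a list were among the 3 largest rises or falls past the threshold in a comparison, together with every receptor, the 3 nearest patterns of each member, and markers at or near 0. A few genes that this rule names are not reported here. Promoters came from RefSeq (GRCm38.p6) and motifs were searched on both strands. The replicate numbers of the labels were checked for pairing: same-numbered libraries of different groups correlated at r = -0.394 to 0.448 in their deviations from the group means, with 4 of 18 pairs over 0.1, so no pairing was assumed. Between the 2 medium groups r was 0.448, 0.0425 and 0.313, against a mean of -0.143 for other numbers. Between shRNA-NC in medium and with cytokines it was -0.368, 0.123 and -0.29. The check therefore does not exclude pairing in the knockdown comparison in medium.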

Additional observations from a re-analysis of the deposited data

Results flagged for a closer look

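The cytokine response differed between the lines for Csf1, with an interaction of -1.36 on the log2 scale (limma adjusted p = 0.000775), and this held in all 20 alternatives. Over all genes tested, 8.21% were called for the interaction. Tested were 4 receptors, 21 genes of the RANK and Il33 receptor pathway and 19 of colony-stimulating factor receptor signalling. A further 7 haematopoietic growth factors, 7 other osteoclast regulators, 4 osteoblast markers and 10 mRNA decay factors were tested. Of the decay factors 0 were called. Other listed genes called for the interaction are given with its value and limma adjusted p, all from the same fit with Benjamini-Hochberg adjustment. Cish, Lif, Il6 and Pth1r passed the filter only through the groups in which they are high. Their calls support nothing, and they are listed without a p-value. Among the receptors these were Il1rl1 (-0.79, adjusted p = 0.00534) and Lgr4 (-0.78, adjusted p = 0.0121). In the RANK and Il33 receptor pathway they were Relb (0.94, adjusted p = 0.00594) and Map3k14 (-0.58, adjusted p = 0.0229). In colony-stimulating factor receptor signalling they were Stat3 (0.84, adjusted p = 0.03) and Cish (-0.51).

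Among the further haematopoietic growth factors they were Clcf1 (-1.45, adjusted p = 0.00816), Cxcl12 (0.97, adjusted p = 0.0122), Kitl (-1.29, adjusted p = 0.029), Lif (-0.99) and Il6 (1.13). The sign of the Il6 interaction turned with a pseudocount of 0.1 (-0.86) and with voom weights (-2.75). Among the other osteoclast regulators they were Efnb2 (-0.98, adjusted p = 0.000775), Vdr (1.02, adjusted p = 0.00641) and Pth1r (-0.55), and among the osteoblast markers Sp7 (-1.19, adjusted p = 0.00366).

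Of these 16 genes, 7 kept the call under every alternative: Csf1, Lgr4, Relb, Clcf1, Cxcl12, Efnb2 and Vdr. The share of all genes that kept a call under every alternative was not computed, so this count is no result about the lists. Il1rl1, Lif and Sp7 lost it only with a pseudocount of 0.1 or voom weights. Leaving out 1 of the 12 libraries lost the call of Stat3 in 9 fits (0.67 to 1.02), Kitl in 7 (-1.50 to -1.09), Cish in 4 (-0.53 to -0.47), Map3k14 in 4 (-0.66 to -0.51), Pth1r in 3 (-0.59 to -0.51) and Il6 in 1 (without shRNA-Ddx5 cytokine replicate 3, 1.06). Other settings also lost the call: Pth1r with a pseudocount of 0.1 (-0.61, adjusted p = 0.44) and with voom weights (-0.10, adjusted p = 0.95), and Cish with the same pseudocount (-0.56, adjusted p = 0.273), voom weights (-0.46, adjusted p = 0.41) and a replicate block (adjusted p = 0.0526). With the block Kitl (adjusted p = 0.0595) and Map3k14 (adjusted p = 0.0568) lost it too, and with no filter on low values Kitl (adjusted p = 0.0703) and Stat3 (adjusted p = 0.0629). Lif, Il6, Cish and Pth1r passed the filter only through the groups in which they are high. Groups of 3 are too small for a check of single outlying libraries.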

How the results depend on the processing

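Of 416 alternative values for the 4 tested members over the 4 comparisons and the interaction, 414 kept their side of the threshold, no called value changed sign, and 2 newly passed. These counts include the cytokine differences of Csf2 in both lines. Csf2 had to differ there by the filter, so that part of the counts supports nothing. Among uncalled values, 12 had the other sign: 3 of the Csf2 knockdown difference with cytokines (range -0.25 to 0.21), 2 of that of Il34 (-0.11 to 0.08), 4 of the Csf2 interaction (-0.80 to 0.16) and 3 of the Tnfrsf11b interaction (-0.08 to 0.13). The 2 that newly passed were the Il34 knockdown difference in medium, with quantile normalization (0.36, limma adjusted p = 0.0476) and without shRNA-NC medium replicate 1 (0.42). With no filter on low values, Csf3 entered the test and the members past the threshold for the interaction became 2 instead of 1 (0.63 for Csf3, limma adjusted p = 0.0264). Its knockdown difference with cytokines was then 0.65 (limma adjusted p = 0.000636) and its cytokine difference in shRNA-Ddx5 0.85 (limma adjusted p = 0.000137). The FPKM of Csf3 was at most 1.03, so these values depend on the pseudocount of 1. No other pseudocount was run for Csf3. The cytokine difference of Csf2 was 7.94 in shRNA-NC and 7.14 in shRNA-Ddx5 with voom weights on fragments. With a replicate block no member's call changed, and the Csf1 interaction stayed at -1.36. Over all 4 groups the pairing check does not support the block: 3 of 12 libraries correlated best with their own number. Ptpn11 in the knockdown in medium reversed with quantile normalization (-0.023, limma adjusted p = 0.814). The Il6 interaction reversed with a pseudocount of 0.1 (-0.86, limma adjusted p = 0.255) and with voom weights (-2.75, limma adjusted p = 0.162). Over all genes, leaving out 1 library gave 559 to 1123 interaction calls against 1016, with over 1.5 times fewer without shRNA-NC medium replicate 2 (628), shRNA-Ddx5 medium replicate 3 (600) or shRNA-Ddx5 cytokine replicate 1, 2 or 3 (610, 632 and 559). The cause of these changes was not tested. The Tnfsf11 to Tnfrsf11b ratio and its other pseudocount were not run, because Tnfsf11 was too scarce. Depth limits Csf3, Il33, Tnfsf11 and most receptors, which held few fragments per library.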
